A study of Mus musculus with 2 samples.

Results

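Retnla, Chil3, Arg1, Mrc1, Mgl2, Clec10a, Ear2, Il4ra, Pdcd1lg2 and Klf4 are genes widely used as signs of the alternative activation of mouse macrophages. The 10 genes were chosen by symbol and all 10 are among the 32285 genes of the count table. They were described in single cells of the stromal vascular fraction of mouse epididymal white adipose tissue, that is, the cells left after the mature adipocytes are removed. One library came from Camk2d myeloid conditional knockout mice and 1 from wild-type mice, and both groups were fed a high-fat diet for 10 weeks. The labels give neither the Cre driver, the deleted exons, the age nor the number of animals behind a library, and 1 description field names another tissue than the remaining labels do. With 1 library per genotype there is no replicate check and no test: every difference below is between these 2 libraries, and every interval is a 95% interval for counting error only.

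Interleukin-4 and interleukin-13 bind receptors that contain Il4ra, and the signal passes through Jak kinases to the transcription factor Stat6, which enters the nucleus and switches on its target genes. In mouse macrophages those targets include secreted proteins (Retnla and Chil3), the enzyme Arg1, lectin receptors of the cell surface (Mrc1, Mgl2 and Clec10a) and the T-cell inhibitory ligand Pdcd1lg2, while the transcription factor Klf4 is known to act together with Stat6. Lean adipose tissue is known for macrophages of this kind, and macrophages that handle lipid gather in it in obesity.

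The promoters of 3 of these genes are shown: those of Retnla and Ear2, which differed most between the libraries in the macrophage gate among the counted genes, and that of Mrc1, which stayed within 1.5-fold in all macrophage gates. Entries of the RefSeq promoter table (GRCm38.p6) matched 8 of the 10 genes. The letters run 5′ to 3′ on the coding strand, which is the plus strand for all 3 genes, and stop before the annotated gene. Capitals mark matches to the motifs searched in the 250 bases before each RefSeq start: the Stat6 type, which is TTC and GAA with 4 bases of any kind between them, the general Stat type, which is TTC and GAA with 3 bases between them, and TTGCNNAA, a C/EBP type searched on both strands. The first and second motifs read the same on either strand, so 1 strand covers both.
Retnla chr16:48842359-48842550: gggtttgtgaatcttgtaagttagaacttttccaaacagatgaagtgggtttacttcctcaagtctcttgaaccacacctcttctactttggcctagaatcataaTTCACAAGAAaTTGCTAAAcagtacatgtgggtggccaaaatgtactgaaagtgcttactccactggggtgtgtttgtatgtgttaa
Ear2 chr14:44102404-44102653: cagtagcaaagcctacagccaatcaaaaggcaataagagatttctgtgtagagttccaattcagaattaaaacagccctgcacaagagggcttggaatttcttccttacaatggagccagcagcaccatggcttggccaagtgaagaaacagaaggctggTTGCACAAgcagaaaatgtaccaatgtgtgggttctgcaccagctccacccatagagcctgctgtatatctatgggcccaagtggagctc
Mrc1 chr2:14229164-14229391: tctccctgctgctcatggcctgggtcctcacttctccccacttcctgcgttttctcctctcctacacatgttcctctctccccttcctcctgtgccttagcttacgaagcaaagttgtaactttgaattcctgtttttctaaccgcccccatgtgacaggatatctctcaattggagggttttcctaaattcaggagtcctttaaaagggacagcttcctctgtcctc
The Retnla promoter held a Stat6-type motif that begins 145 bases before the RefSeq start and a C/EBP-type motif that begins 134 bases before it, with 1 base between them. The Ear2 promoter held the C/EBP-type motif 90 bases before the start, and the Mrc1 promoter held none of the 3 motifs. Among the other matched genes, Pdcd1lg2 held the Stat6-type motif and Chil3 the general Stat type, while Mgl2, Il4ra and Klf4 held none. Over all 32851 promoters of the table, 5.85% held the Stat6-type motif, 7.02% the general Stat type and 9.56% the C/EBP type. A match describes these letters and is not evidence of binding.

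The libraries differed in depth. The knockout library held 10631 barcodes with a median of 7385 unique molecular identifiers (UMIs, 1 per captured RNA molecule), and the wild-type library held 15555 barcodes with a median of 3094. After filtering, 9200 knockout and 14854 wild-type cells were kept. The 2 libraries shared 48 barcodes. Cells were assigned to gates by the summed UMIs of marker genes, none of which is among the 10, and a gate is a range of marker scores rather than a cell type. The macrophage gate held 1042 knockout and 1940 wild-type cells, of which 42 and 170 lay less than 25% above its limit. It was divided into a resident gate (277 knockout and 400 wild-type cells, by Lyve1, Folr2, Cd163 and similar markers), a lipid-associated gate (253 and 725 cells, by Trem2, Gpnmb, Lpl and similar markers) and the remaining macrophages (505 and 794 cells). Cells near the limit numbered 57 knockout and 65 wild-type cells in the resident gate, and 68 and 142 in the lipid-associated gate. Cells with Ccr2 and an intermediate macrophage score numbered 85 in the knockout against 226 in the wild type, and their leading genes, Mmp12, Gpnmb, Lpl and Lgals3, included no marker that defined that gate, so they are called by their rule. Smaller gates held Ly6c2 monocytes (31 and 41 cells), Cd209a dendritic cells (57 and 66), type 1 dendritic cells (99 and 193) and mature dendritic cells (46 and 61). Patrolling monocytes (20 and 7) and cavity-type macrophages (55 and 4) were too few in the wild type, and no ratio is given for them.

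RNA of the targeted gene checks the labels only in part, since a 3′ count can lie outside the deleted exons. In the macrophage gate Camk2d was at 25 counts per 1000000 UMIs of the gate (CPM) in the knockout, with an interval of 22.6 to 27.7, against 45.7 CPM in the wild type, 42.5 to 49.0. In Ly6c2 monocytes it was at 83.7 CPM in the knockout against 62.3 CPM in the wild type, from 29 and 14 UMIs. The log2 ratio there had an interval of -0.54 to 1.46, so no direction is given. In progenitors, which are not myeloid, Camk2d was at 91.8 CPM in the knockout against 98.3 CPM in the wild type. Camk2d was thus lower, and not absent, in the knockout macrophages. The part that RNA free in the suspension, described next, has in these levels was not tested.

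RNA free in the suspension differed between the libraries as well. Markers of adipose progenitors summed to 238 CPM in the knockout macrophage gate, against 722 CPM in the wild-type one, and all 6 of these markers were above 0 in both. Scaled by those markers, free RNA was estimated at 4.08% of the UMIs of the knockout macrophage gate and at 13.4% in the wild type. The highest feature of the macrophage gate, Gm42418, named after its values were seen, took 111618 CPM in the knockout against 75674 CPM in the wild type. The part that free RNA, depth and this feature have in the ratios below was not tested beyond the alternative in which free RNA was subtracted.

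Of the 10 genes, 7 passed the limits for a counted ratio in the macrophage gate, a mean of 50 CPM over both libraries and 30 UMIs in the higher one. Of these, Retnla and Ear2 exceeded the wild type by 1.5-fold or more, 0 fell short of it by as much, and the other 5, Mrc1, Mgl2, Clec10a, Il4ra and Klf4, lay between. Over all 2639 counted genes of that gate, 4.32% lay 1.5-fold or more above the wild type and 2.43% as far below it. That is 114 genes above and 64 below, or 136 above and 44 below once ratios are centred on the median of all counted genes. The median log2 ratio, knockout over wild type, was 0.45 for the 7 genes and -0.06 for all counted genes. Chil3, Arg1 and Pdcd1lg2 were too low to be counted there, at 1.76, 1.69 and 0.541 CPM in the knockout and 0.715, 3.93 and 0.417 CPM in the wild type.

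**Figure D1:**
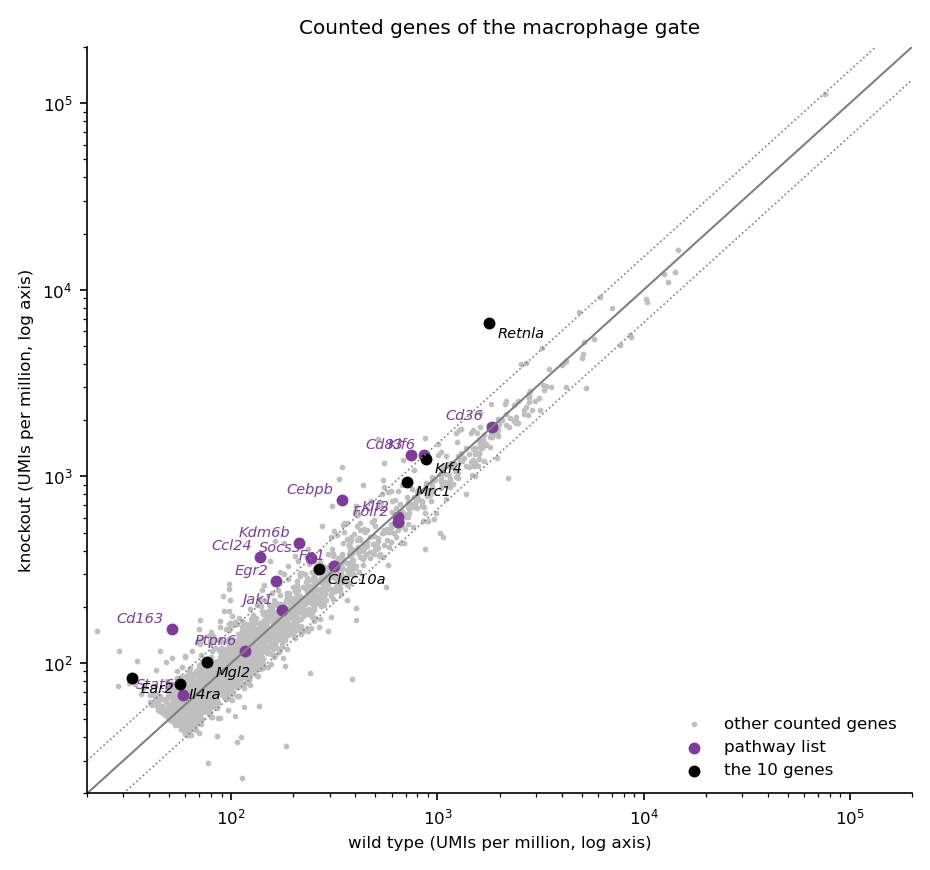
Level of every counted gene of the macrophage gate, wild type on the x axis and knockout on the y axis, in CPM on log axes. Black points are the 7 of the 10 genes that were counted. Purple points are the counted genes of the list of interleukin-4 and interleukin-13 genes and relatives of the 10 genes. The solid line marks equal levels and the dotted lines a 1.5-fold difference. Retnla, at 6597 CPM in the knockout against 1777 CPM in the wild type, lies farthest from the line of equal levels among the black points.

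The differences among the secreted proteins were mainly in Retnla. Retnla (chromosome 16, 48842551 to 48844461, plus strand, GRCm38) encodes a resistin-like protein that alternatively activated macrophages secrete. It was at 6597 CPM in the knockout macrophage gate, against 1777 CPM in the wild type, from 97477 and 29826 UMIs. The ratio was 3.71-fold, a log2 ratio of 1.89 with an interval of 1.87 to 1.91, and 2 of the 2639 counted genes had a larger one, since Retnla ranked as number 3. All 3 parts of the macrophage gate had more Retnla in the knockout. Resident macrophages had 9784 CPM in the knockout against 3632 CPM in the wild type. Lipid-associated macrophages had 5766 CPM in the knockout against 1155 CPM in the wild type, the largest ratio of all 2612 counted genes in that gate at 4.99-fold. The remaining macrophages had 5351 CPM in the knockout against 1737 CPM in the wild type. In both libraries the resident gate therefore had the highest level. Leaving out the 3 cells with most Retnla UMIs in each gate and library gave ratios of 2.66-fold, 5.79-fold and 4.21-fold in the resident, lipid-associated and remaining gates.

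The intermediate Ccr2 cells behaved differently under other settings. Their Retnla was at 4483 CPM in the knockout against 1984 CPM in the wild type, a ratio of 2.26-fold. Of the 6689 knockout UMIs, however, 3929 came from 3 cells, and without the 3 highest cells of each library the levels were 1954 CPM in the knockout against 1444 CPM in the wild type, a ratio of 1.35-fold. Gates drawn on cells thinned to 2000 UMIs turned the log2 ratio to -0.87. The median cell of this gate was lower in the knockout, at 163 CPM, than in the wild type, at 260 CPM. No direction is therefore given for Retnla in these cells.

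In monocytes and in type 1 and mature dendritic cells, Retnla was near or below the level of T and B cells. Ly6c2 monocytes had 60.6 CPM in the knockout against 89.0 CPM in the wild type, type 1 dendritic cells 73.6 and 92.7 CPM, and mature dendritic cells 102 and 117 CPM. T cells had 130 CPM in the knockout against 171 CPM in the wild type, and B cells 105 and 113 CPM. The estimated free RNA accounted for 44.4% of the Retnla UMIs of knockout T cells and 86.2% of those of wild-type T cells. Cd209a dendritic cells had 725 CPM in the knockout against 212 CPM in the wild type. Free RNA was estimated to give 5.02% of the knockout and 48.1% of the wild-type Retnla UMIs of this gate. However, 1 knockout cell held 264 of the 492 UMIs. Without the highest cell of each library the levels were 352 and 175 CPM, and the wild-type one was then near the 171 CPM of wild-type T cells. Single cells likewise made up the Retnla of 2 small gates of the knockout, with 202 of 217 UMIs in 1 type 2 innate lymphoid cell and 173 of 184 UMIs in 1 neutrophil-gate cell.

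**Figure D2:**
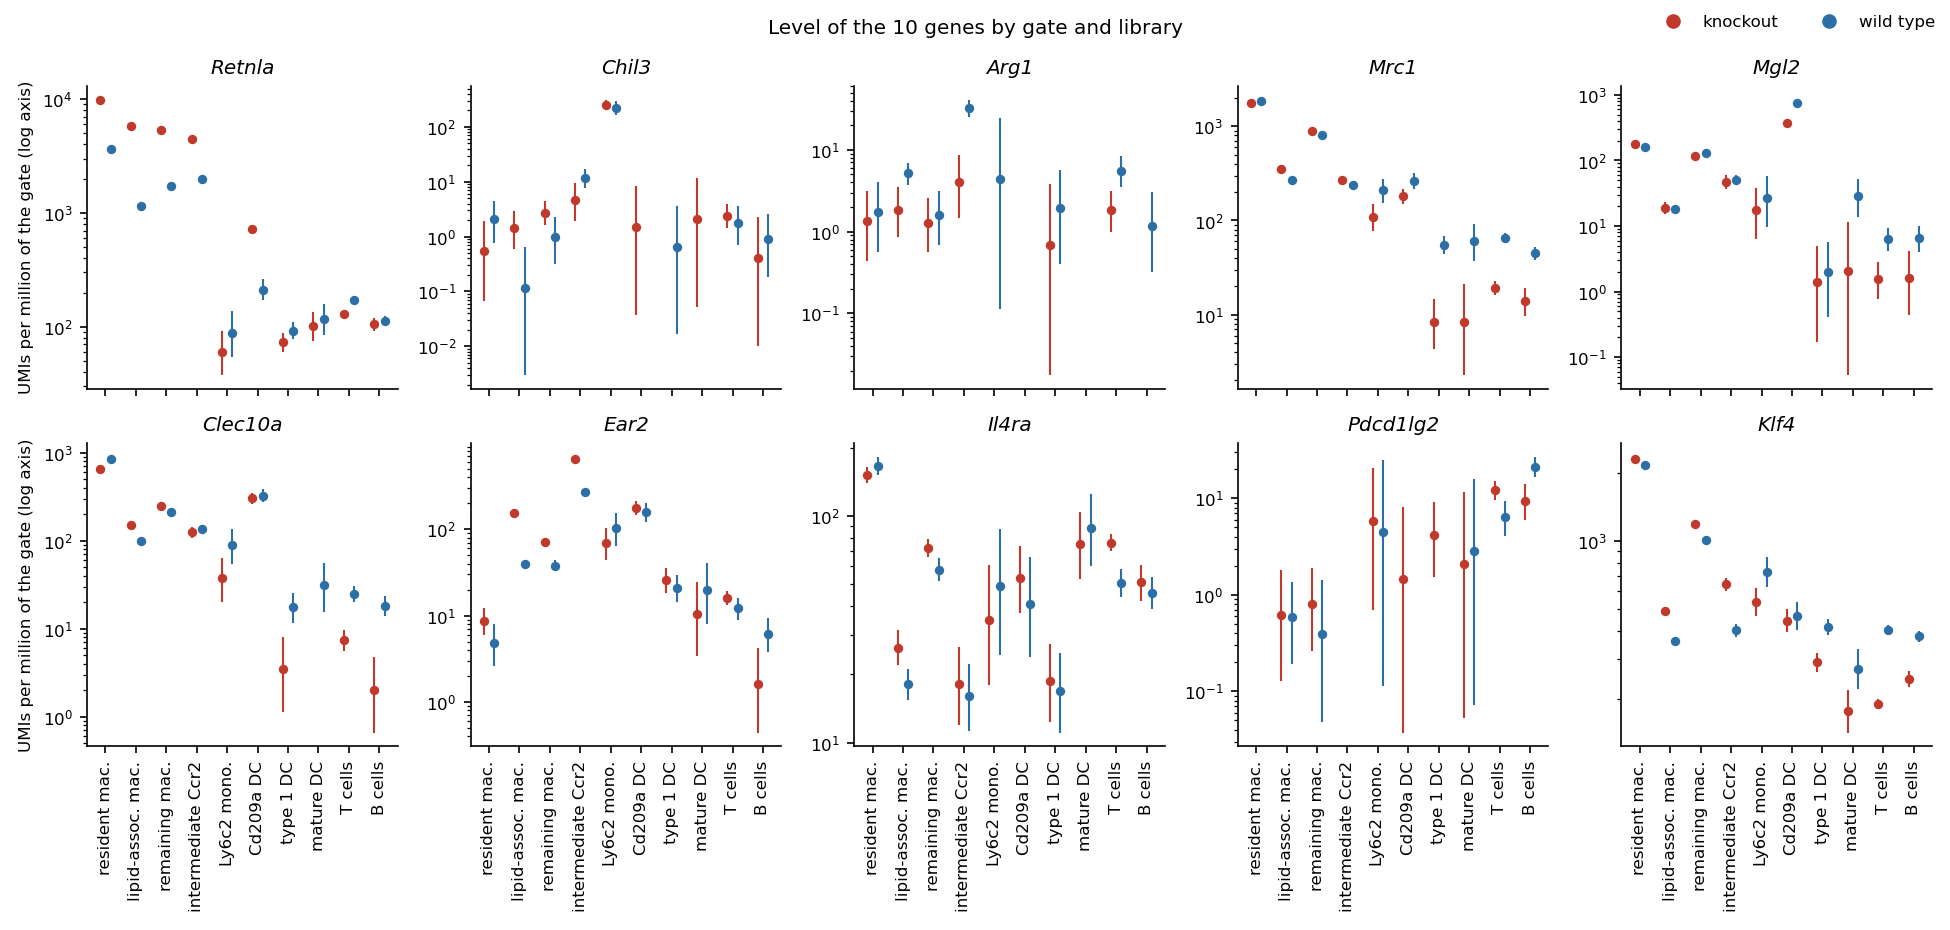
Level of each of the 10 genes in 8 myeloid gates and in T and B cells, in CPM on log axes that differ between panels. Red points are the knockout and blue points the wild-type library, bars are 95% Poisson intervals for counting error, and a level of 0 is not drawn. The knockout points for Retnla lie above the wild-type points in all 3 macrophage gates, and Retnla lies near the T-cell and B-cell level in Ly6c2 monocytes and in type 1 and mature dendritic cells.

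Retnla was spread unevenly over single cells. In the knockout macrophage gate the median cell had 270 CPM and the 90th percentile 21331 CPM, and in the wild type the median cell had 130 CPM and the 90th percentile 3504 CPM. In cells thinned to 2000 UMIs, the tenth of cells with most Retnla held 63.0% of its UMIs in the knockout against 85.3% in the wild type. Cells in which Retnla made up at least 1% of all UMIs numbered 205 of 1042 in the knockout, 19.7%, and 104 of 1940 in the wild type, 5.36%. The same shares were 32.5% in the knockout against 13% in the wild type for resident macrophages, 18.2% and 3.03% for lipid-associated macrophages, and 13.3% and 3.65% for the remaining macrophages. Intermediate Ccr2 cells had 7.06% in the knockout against 7.52% in the wild type. Among the cells past 1%, the summed level was 28057 CPM in the knockout against 24292 CPM in the wild type. Among the cells under 0.1%, it was 155 CPM in the knockout against 129 CPM in the wild type. In resident macrophages past 1% it was 24100 CPM in the knockout against 17629 CPM in the wild type. These classes were drawn on Retnla itself, so the levels within them are a description only.

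**Figure D3:**
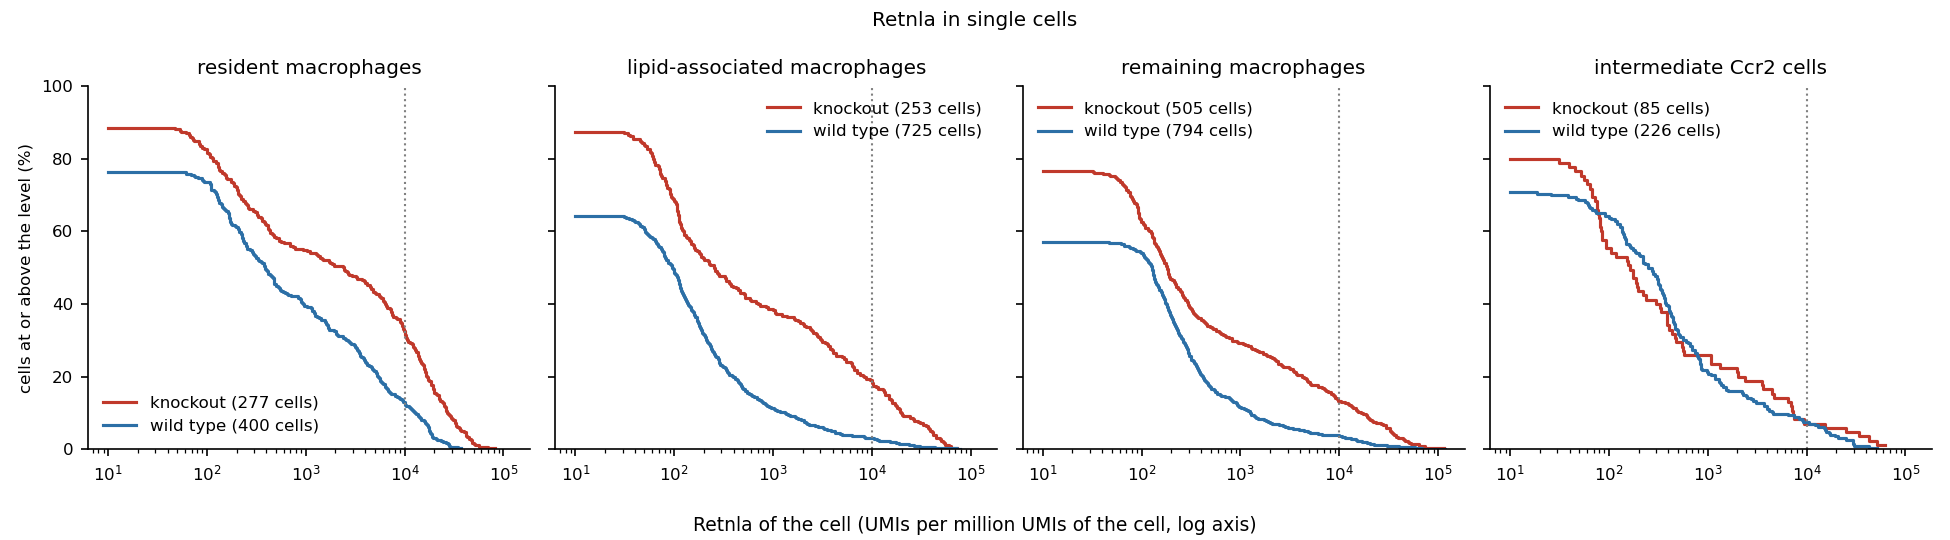
Share of cells at or above a given Retnla level, with the level in CPM of the cell on a log axis, for 4 gates, knockout in red and wild type in blue. The dotted line marks 1% of the UMIs of a cell. At that line 32.5% of knockout and 13% of wild-type resident macrophages remain, 18.2% and 3.03% of lipid-associated macrophages, and the curves of the intermediate Ccr2 cells cross.

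The mere presence of a Retnla UMI separated the gates less well. In cells thinned to 2000 UMIs, 54.4% of knockout macrophages (51.3 to 57.5%) and 36.9% of wild-type macrophages (34.8 to 39.1%) had 1, against 82.3% and 63.8% unthinned. T cells had 23.7% in the knockout against 30.6% in the wild type, with median depths of 5362 and 3955 UMIs, while the macrophage gates had median depths of 12324 and 7321 UMIs. Wild-type lipid-associated macrophages were at 30.6%, as were wild-type T cells, so the share did not exceed that of cells that should lack the gene. Free RNA was estimated to give 5.81% of the Retnla UMIs of that gate and 86.2% of those of wild-type T cells, and what it gives to the share was not tested. The knockout lipid-associated macrophages were at 53.8%.

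Cells past 1% Retnla and cells under 0.1% were set side by side for other genes. In resident macrophages past 1% Retnla, Mrc1 was at 1565 CPM in the knockout against 1546 CPM in the wild type, against 1905 and 1937 CPM in resident cells under 0.1%. Lyve1, a marker of the resident gate, was at 1091 CPM in the knockout against 952 CPM in the wild type in the cells past 1%, against 799 and 581 CPM in the cells under 0.1%. In lipid-associated macrophages Ear2 was at 198 CPM in the knockout against 81.9 CPM in the wild type in the cells past 1%, against 96.9 and 35.2 CPM in the cells under 0.1%. These are cells of 1 library each and not replicates.

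Chil3 (chromosome 3, 106147554 to 106167564, minus strand) encodes a chitinase-like secreted lectin that is also made by monocytes and neutrophils. The macrophage gate had 26 UMIs in the knockout against 12 UMIs in the wild type. Ly6c2 monocytes had 88 UMIs and 254 CPM in the knockout, 204 to 313 CPM, and 50 UMIs and 222 CPM in the wild type, 165 to 293 CPM, so the intervals overlapped. The monocyte gate held 1 knockout barcode rich in Mpo and Elane, genes of granulocyte precursors, and without it the log2 ratio of Chil3 came to 0.39 in place of 0.19. Knockout cavity-type macrophages, cells with markers of the macrophages of the body cavities, had 135 UMIs and 140 CPM in 28 of 55 cells, while the 4 wild-type cells had 0, which allows up to 3. Of the 501 Chil3 UMIs in kept knockout cells, 157 lay in 1 neutrophil-gate cell, and the wild type had 170 UMIs in all. That cell had 37273 UMIs, against a gate median of 4242 UMIs, and 2 of the 21 cells of the gate had Chil3. The highest Retnla and Mrc1 counts of the gate, 173 and 22 UMIs, were also in a cell of 37273 UMIs. The last 400 bases of Chil3 share 8.66% of their 50-base stretches with other genes, Chil4 among them, and Chil4 itself had 0 UMIs in the myeloid gates.

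Arg1 (chromosome 10, 24915221 to 24927484, minus strand), the arginase that splits arginine into ornithine and urea, had few UMIs. The macrophage gate had 25 UMIs in the knockout against 66 UMIs in the wild type. Intermediate Ccr2 cells had 6 UMIs in the knockout against 73 UMIs in the wild type, at 4.02 and 32.5 CPM, but 46 of the wild-type UMIs were in 3 cells. Type 2 innate lymphoid cells, which are known to express Arg1, had 89.6 CPM in the knockout against 107 CPM in the wild type from 9 and 12 UMIs. Cells with an Arg1 UMI after thinning made up 0.288% of knockout and 0.670% of wild-type macrophages, against 0.266% and 0.654% of T cells. Of the 13 wild-type macrophages with one, 10 were lipid-associated, 1.38% of that gate with an interval of 0.663 to 2.52%, which overlaps the interval of wild-type T cells, 0.240 to 1.42%.

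The lectin receptors lay highest in resident macrophages or in Cd209a dendritic cells. In the 3 parts of the macrophage gate 1 counted ratio of the 3 lectins, that of Clec10a in lipid-associated macrophages, passed 1.5-fold. Mrc1 (chromosome 2, 14229392 to 14332057, plus strand), the mannose receptor, was at 1766 CPM in knockout and 1866 CPM in wild-type resident macrophages, 352 and 270 CPM in lipid-associated macrophages, and 898 and 814 CPM in the remaining macrophages. The log2 ratios in these 3 gates were -0.08, 0.38 and 0.14, all within 1.5-fold. Over the whole macrophage gate Mrc1 was at 935 CPM in the knockout against 713 CPM in the wild type, and resident cells, where it is highest, made up 26.6% of that gate in the knockout against 20.6% in the wild type. Thinned to 2000 UMIs, 94.2% of knockout and 94.5% of wild-type resident macrophages had an Mrc1 UMI, against 3.37% of knockout and 13.4% of wild-type T cells. In Ly6c2 monocytes Mrc1 was at 110 CPM in the knockout against 209 CPM in the wild type, at least 1.5-fold lower, and 7.04% of all counted genes of that gate were that much lower. The count rests on 38 and 47 UMIs, and the log2 ratio of -0.93 came to -0.73 without the Mpo and Elane barcode and to -2.46 with gates drawn on thinned cells.

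Clec10a (chromosome 11, 70156197 to 70170834, plus strand), a lectin for galactose-type sugars, was at 649 CPM in knockout and 859 CPM in wild-type resident macrophages, a log2 ratio of -0.40. In lipid-associated macrophages it was at 150 CPM in the knockout against 98.3 CPM in the wild type, a ratio of 1.53-fold that just passes the limit and came to 1.48-fold under a stricter cell filter. The remaining macrophages had 251 CPM in the knockout against 214 CPM in the wild type. Clec10a thus lay below the wild type in the resident gate and above it in the lipid-associated gate, and whether these 2 ratios differ was not tested.

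Mgl2 (chromosome 11, 70130329 to 70137550, plus strand) lies close to Clec10a and is a known marker of a group of dendritic cells. Its highest level was in Cd209a dendritic cells, with 371 CPM in the knockout, 327 to 420 CPM, and 755 CPM in the wild type, 674 to 844 CPM. The wild type was 2.03-fold higher. Of all 2306 counted genes of that gate, 5.51% were at least 1.5-fold lower in the knockout and 9.67% at least 1.5-fold higher. The gate held 57 and 66 cells. Without thinning, 38.6% of knockout and 50% of wild-type cells had an Mgl2 UMI. After thinning, the shares lay closer, at 33.3% in the knockout against 37.9% in the wild type. With gates drawn on thinned cells the log2 ratio of -1.02 came to -0.52, which no longer passed 1.5-fold. In resident macrophages Mgl2 was at 180 CPM in the knockout against 158 CPM in the wild type. Clec10a shares 12.9% of the 50-base stretches in its last 400 bases with Mgl2, so reads from there cannot be told apart.

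**Figure D4:**
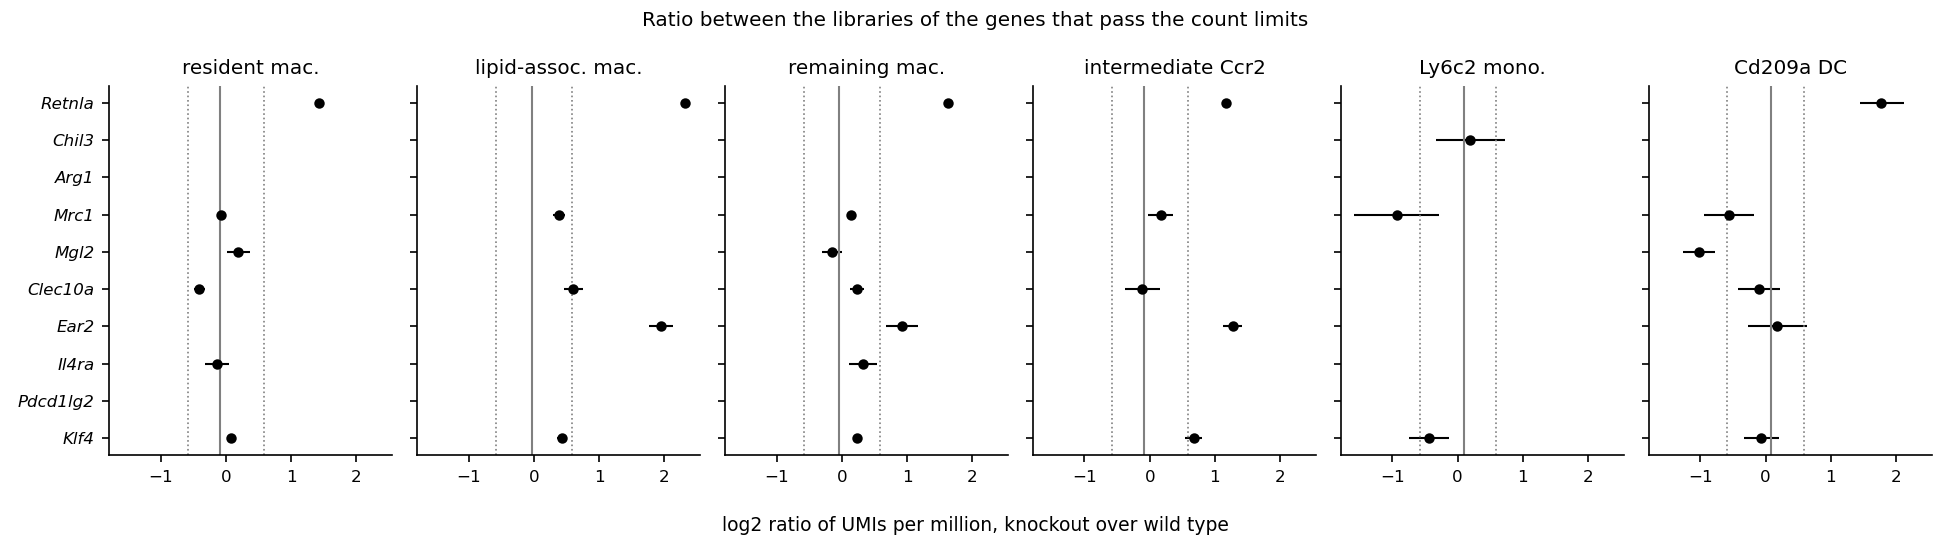
Log2 ratio of CPM, knockout over wild type, of the genes that passed the count limits in 6 gates. Points are ratios and bars 95% intervals for counting error; the grey line is the median of all counted genes of the gate and the dotted lines mark 1.5-fold. Retnla lies right of the dotted line in all panels where it was counted, and Ear2 in the lipid-associated, remaining and intermediate gates, while Mrc1 stays between the lines in the 3 macrophage gates; in the intermediate gate the Retnla direction turns when gates are drawn on thinned cells.

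Ear2 (chromosome 14, 44102654 to 44103534, plus strand) encodes an eosinophil-associated ribonuclease that alternatively activated macrophages and patrolling monocytes are known to make. It was at 155 CPM in knockout and 40.1 CPM in wild-type lipid-associated macrophages, a ratio of 3.86-fold. The remaining macrophages had 72.2 CPM in the knockout against 38.1 CPM in the wild type, 1.89-fold. Intermediate Ccr2 cells had 645 CPM in the knockout against 267 CPM in the wild type, 2.41-fold, but with gates drawn on thinned cells that ratio came to 1.17-fold. Ear2 was near 0 in resident macrophages, at 8.70 CPM in the knockout against 4.83 CPM in the wild type.

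After thinning, an Ear2 UMI was found in 17.8% of knockout lipid-associated macrophages (13.3 to 23.1%) and in 5.79% of wild-type ones (4.21 to 7.75%), against 0.709% and 2.94% of T cells. In intermediate Ccr2 cells the shares were 51.8% in the knockout against 26.5% in the wild type. Without thinning, all 20 knockout patrolling monocytes had an Ear2 UMI, at 897 CPM, and 4 of the 7 wild-type ones did so at 381 CPM. The median depths of these cells were 6597 UMIs in the knockout and 3764 UMIs in the wild type. In Cd209a dendritic cells the levels were 177 CPM in the knockout against 157 CPM in the wild type. Of its 50-base stretches near the 3′ end 27.4% are shared with relatives such as Ear1, Ear6 and Ear10. Ear6 and Ear10 had 0 UMIs in every gate, and Ear1 had 1 UMI in the knockout macrophage gate and 2 UMIs in the wild-type one. Reads from the shared stretches cannot be told apart.

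No counted ratio of Il4ra or Klf4 passed 1.5-fold in the macrophage gate or its 3 parts, and Pdcd1lg2 was too low to be counted there. Il4ra (chromosome 7, 125552120 to 125579474, plus strand), the receptor chain that interleukin-4 and interleukin-13 share, was at 152 CPM in knockout and 167 CPM in wild-type resident macrophages, and at 72.5 and 58.1 CPM in the remaining macrophages. Lipid-associated macrophages had 26.3 CPM in the knockout against 18.1 CPM in the wild type, under the limit for a count. T cells had 76.4 CPM in the knockout against 50.9 CPM in the wild type.

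Pdcd1lg2 (chromosome 19, 29410919 to 29471161, plus strand), the second ligand of the T-cell receptor PD-1, had 8 UMIs in knockout and 7 UMIs in wild-type macrophages. The gate with the largest share of its 202 knockout UMIs was T cells, at 42.1%, and for its 164 wild-type UMIs it was B cells, at 43.9%.

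Klf4 (chromosome 4, 55527143 to 55532466, minus strand), a transcription factor, was at 2304 CPM in knockout and 2170 CPM in wild-type resident macrophages, 490 and 362 CPM in lipid-associated macrophages, and 1193 and 1011 CPM in the remaining macrophages. All 3 ratios were within 1.5-fold. Progenitors had the highest level, with 3635 CPM in the knockout against 2635 CPM in the wild type, and held 80.5% of the knockout and 58.8% of the wild-type Klf4 UMIs. T cells had 190 CPM in the knockout against 404 CPM in the wild type, and free RNA was estimated to give 36.2% and 62.5% of those UMIs.

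Counted by gate, 1 of 6 counted genes lay 1.5-fold or more above the wild type in resident macrophages and 0 below, where 3.16% of all counted genes lay above and 3.43% below. In lipid-associated macrophages it was 3 of 5 above and 0 below, against 4.02% and 1.72%. In the remaining macrophages 2 of 7 were above and 0 below, against 3.57% and 1.55%, and in intermediate Ccr2 cells 3 of 5 and 0, against 7.65% and 7.69%. Those 3 are Retnla, Ear2 and Klf4, and with gates drawn on thinned cells their log2 ratios came to -0.87, 0.23 and 0.20, so that none stayed past the limit in that direction. In Ly6c2 monocytes 0 of 3 were above and 1, Mrc1, below, against 13.3% and 7.04%. In Cd209a dendritic cells 1 of 6, Retnla, was above and 1, Mgl2, below, against 9.67% and 5.51%. In type 1 dendritic cells 0 of 2 were past the limit either way, against 2.67% and 3.43%, and in mature dendritic cells 0 of 3 were above and 1, Klf4, below, against 12.1% and 6.77%. The medians of the counted genes of the set were 0.00, 0.61, 0.24 and 0.67 in the resident, lipid-associated, remaining and intermediate gates.

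The level of each gene over gates was set beside that of 6218 other genes, as a Pearson correlation of log2(CPM + 10) over 30 sums of a gate and library. The sums share 2 libraries and their depth, so the values are a description. Retnla was most like Fcrls (r = 0.93), Il10 (0.88) and Gas2l3 (0.86). Mrc1 was most like Clec10a (0.94), F13a1 (0.92) and Dab2 (0.91), and Clec10a was most like Mrc1, Clec4a1 (0.87) and Clec4a3 (0.87). Mgl2 was most like Clec10a (0.86), Fcrls (0.81) and Cd209a (0.80), and Ear2 most like Clec4b1 (0.87), Cd300c2 (0.86) and Matk (0.85). Chil3 was most like Klra2 (0.96), Apoc2 (0.90) and Trem1 (0.89), Il4ra most like Arhgef3 (0.83), Parp14 (0.78) and Rlim (0.77), and Klf4 most like Zcchc24 (0.93), C1qtnf1 (0.90) and Fosb (0.89).

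Further genes were taken from a list of 47 genes, which holds genes of the interleukin-4 and interleukin-13 pathway and relatives of the genes described above. The list counts below cover both kinds and are not counts of pathway genes alone. Of the 15 list genes that were counted in the macrophage gate, 8 lay 1.5-fold or more above the wild type, 0 as far below and 7 between. Over all counted genes of that gate, 4.32% lay above and 2.43% below. The median log2 ratio of the 15 was 0.60. Because the list was chosen with earlier results of these data known, these counts are a description only. The signalling core did not pass the limit: Stat6 was at 67.5 CPM in the knockout against 58.6 CPM in the wild type, and the kinase Jak1 at 192 and 176 CPM. The 8 higher genes were the transcription factors Cebpb, Egr2 and Klf6, the histone demethylase Kdm6b, the signalling inhibitor Socs3, the chemokine Ccl24, the scavenger receptor Cd163 and the surface protein Cd83. Cebpb, a C/EBP factor, was at 748 CPM in the knockout against 345 CPM in the wild type. Kdm6b was at 439 CPM in the knockout against 213 CPM in the wild type. Ccl24, which attracts eosinophils, was at 371 CPM in the knockout against 138 CPM in the wild type.

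Egr2, Klf6, Socs3 and Cd83 are also known to respond to many signals other than these cytokines. Cd163 is itself a marker of the resident gate, and within that gate it was at 483 CPM in the knockout against 228 CPM in the wild type. By gate, 4 of 15 counted list genes were higher and 2 lower in resident macrophages, against 3.16% and 3.43% of all counted genes. In lipid-associated macrophages 5 of 13 were higher and 0 lower, against 4.02% and 1.72%, and in the remaining macrophages 5 of 15 and 0, against 3.57% and 1.55%. Cd83 and Kdm6b were higher in all 3 of these gates. The 2 lower genes of the resident gate were Fn1 and Klf2, and Fn1 was higher in the lipid-associated gate. The cytokines were scarce: Il4 had 12 UMIs in the knockout and 9 UMIs in the wild-type macrophage gate, and Il13 had 30 UMIs in the 17 knockout type 2 innate lymphoid cells and 0 UMIs in the 27 wild-type ones.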

How the data were processed

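The 2 matrices hold UMI counts per gene and cell barcode that the authors deposited without normalization; per the submitters' processing notes Cell Ranger 5.0.0, Seurat 4.1.1 and build mm10 were used, and per the labels the libraries are of the 3′ type and of a single batch. Cells with at least 500 UMIs, 200 genes and at most 20% mitochondrial UMIs were kept, and cells with a Scrublet score above 0.25 (scanpy 1.11.5) were removed as doublets (435 knockout and 478 wild-type cells). Gates were drawn from marker UMIs per 10000 in cells with at least 2000 UMIs (60 for macrophages, 25 for resident, 60 for lipid-associated), and UMIs were summed per gate and library. Levels have exact Poisson, shares Clopper-Pearson and ratios conditional binomial intervals (scipy 1.17.1). Where a count is 0, up to 3 counts are allowed. The ratio step was tested on simulated data. Intervals cover counting error only. UMIs of 3′ ends are not scaled by gene length.

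The 10 genes and the lists were chosen with earlier results of these data known. The text names the 10 genes, the 3 genes most like each, and list genes at 50 CPM or more in a myeloid gate; other names were chosen after their values were seen. Leaving out the Mpo and Elane barcode, or the cells with most UMIs of a gene, was chosen after seeing the data and is given beside the values with all cells. Positions are from GENCODE M21 (GRCm38), matched on Ensembl identifiers.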

Additional observations from a re-analysis of the deposited data

Results flagged for a closer look

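Klf4 was at least 1.5-fold different in opposite directions in 2 gates, which is what singled it out. Its log2 ratio, knockout over wild type, was 0.67 in intermediate Ccr2 cells, with 643 CPM in the knockout against 403 CPM in the wild type, and -0.62 in mature dendritic cells, with 177 CPM in the knockout against 271 CPM in the wild type. The difference between these 2 ratios was not tested. Free RNA was estimated to give 42.1% of the Klf4 UMIs of knockout and 75.9% of those of wild-type mature dendritic cells, and with it subtracted the ratio there had the opposite sign, at 0.43. In intermediate Ccr2 cells the mean over cells gave a log2 ratio of 0.32, and gates drawn on thinned cells gave 0.20.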

How the results depend on the processing

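No paired analysis was possible because each genotype has 1 library. Over 44 values of a gene in a gate and all alternatives, 379 ratios were recomputed: 284 stayed within the interval of the value as reported, 93 moved outside it and 2 turned a ratio past 1.5-fold to the other sign. Of ratios within 1.5-fold, 17 recomputed ones, of 12 values, had the other sign too, among them Retnla in type 1 dendritic cells (1.57 with free RNA subtracted) and, with gates drawn on thinned cells, Mrc1 (0.64) and Clec10a (1.18) in Cd209a dendritic cells. Retnla in intermediate Ccr2 cells came to -0.87 with gates drawn on thinned cells, and Klf4 in mature dendritic cells to 0.43 with free RNA subtracted; the causes were not tested. The 15 values past 1.5-fold were recomputed 138 times in all, and 130 of these recomputed ratios stayed past it in the same direction. Over its alternatives the Retnla log2 ratio ran from 1.68 to 2.11 in the macrophage gate, 1.23 to 1.52 in the resident, 2.29 to 2.92 in the lipid-associated and 1.49 to 2.42 in the remaining gate, and Ear2 from 1.58 to 2.01 in the lipid-associated gate. In the macrophage gate, 1 gene of the set in place of 2 was at least 1.5-fold higher with the mean over cells and with raised gate limits, where 6 genes of the set passed the limits in place of 7. With no limit beyond 1 UMI in each library 3 of the 10 were higher and 1 was lower, and 1271 of all genes were higher and 2985 lower. A limit of 10 CPM gave 226 higher and 348 lower, and a fold of 2 gave 32 and 17, against 114 and 64. Giving the 3 macrophage gates the same weight gave 82 higher and 35 lower. The median log2 ratio of all counted genes lay between -0.09 and 0.10 in every gate, and centring on it gave 136 higher and 44 lower in the macrophage gate. Leaving out a replicate was not possible with 1 library per genotype. Few UMIs limit what can be said of Arg1, Pdcd1lg2 and Chil3 in macrophages, and of gates of under 100 cells.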

Other observations

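Camk2d itself differed with the Retnla level of the cell. In knockout macrophages past 1% Retnla it was at 13.4 CPM, against 29.8 CPM in those under 0.1%, and in wild-type macrophages at 27.2 CPM against 47.5 CPM. Resident cells were 52 of the 104 wild-type cells past 1% and 242 of the 1604 under 0.1%. By gate, resident cells had 12.3 against 30.6 CPM in the knockout and 30.2 against 34.8 CPM in the wild type. Lipid-associated cells had 9.11 against 27.7 CPM and 28.7 against 51.2 CPM, and the remaining macrophages 19.2 against 30.8 CPM and 22.2 against 46.4 CPM. The counts are low, the groups of cells were drawn on Retnla itself, and these differences were not tested.

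Retnlg, a relative of Retnla, lay in the neutrophil gate, with 825 UMIs in the 21 knockout cells and 93 UMIs in the 5 wild-type cells, and had 5 UMIs in the knockout and 4 UMIs in the wild-type macrophage gate. Retnlb had 0 UMIs in both. An Ear2 count of 47 UMIs in 1 of the 1129 knockout T cells was the highest of that gate, whose 113 Ear2 UMIs came from 18 cells. That cell had 23046 UMIs, against a gate median of 5362 UMIs. The highest Retnla count of the gate, 28 UMIs, was also in a cell of 23046 UMIs.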
